A study of Mus musculus with 10 samples.

Results

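The 39 interferon response genes described here are the interferon-stimulated genes, their IRF and STAT regulators, and the interferon-induced chemokines and guanylate-binding proteins of mouse. They were chosen by gene name, by a rule that uses no measured value, but with earlier results of these data known. All 39 were present among the 46603 genes of the deposited table and passed the filter on low counts. Their RNA was measured in macrophages of 4T1 tumours, a series made to study podoplanin-positive macrophages in lymphatic vessel growth and matrix remodelling. 4T1 is a mammary carcinoma line of mouse that is grown as a tumour by grafting. Viable cells that carried CD11B and F4/80, the usual surface pair of mouse macrophages, were sorted into a fraction with surface podoplanin (PDPN), which the submitters call PoEMs, and a fraction without it (non-PoEMs). Each of 5 tumours, numbered 1, 2, 4, 5 and 6, gave 1 library of each fraction, so that 5 PDPN-positive and 5 PDPN-negative libraries were compared within tumours. The labels name no genotype, mouse strain, age or treatment for either fraction, and both fractions share the tumour, the digestion with collagenase and dispase and the SMART-Seq amplification. They do not say whether each tumour came from a mouse of its own, so the tumour is the unit of the p-values. Those of the comparison within tumours measure how the difference between fractions varied across these 5 tumours, not the spread of levels between them.

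Interferons are secreted proteins, and those of type I are released when cells sense nucleic acids of viruses or of damaged cells. Type I interferons act through the receptor IFNAR and type II interferon (interferon gamma) through IFNGR; both receptors activate Janus kinases. Type I signalling acts through STAT2 and IRF9 on the interferon-stimulated response element (ISRE), whereas interferon gamma acts on gamma-activated sites (GAS). The genes switched on include antiviral enzymes, nucleic acid sensors and chemokines, and in tumour macrophages the chemokines CXCL9 and CXCL10 are known for drawing T cells that carry the receptor CXCR3.

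Library totals lay between 12597829 and 15406722 counts, so that 1 count equalled 0.0649 to 0.0794 CPM, the count scaled to the library total. Values below are CPM after TMM scaling, a correction for library composition, given in the order of tumours 1, 2, 4, 5 and 6. Pdpn itself was at 29.1, 13.1, 22.0, 11.0 and 21.4 CPM in the PDPN-negative and 198, 189.8, 212, 225 and 248 CPM in the PDPN-positive libraries, and the groups did not overlap. The 12 macrophage markers together reached 33190 to 38750 CPM in the PDPN-negative and 32130 to 36160 CPM in the PDPN-positive libraries. Markers of other cell types were also present and moved with the sort. Over all tested genes, 14.3% were called lower in the PDPN-positive fraction and 13.8% higher. Of 10 tested monocyte markers, 7 were lower in the PDPN-positive fraction (summed level 1654 to 2440 against 1446 to 1608 CPM), as were 5 of 5 tested eosinophil markers (58.6 to 149 against 4.76 to 14.4 CPM) and 7 of 10 of conventional dendritic cells (124 to 304 against 66.5 to 149 CPM). Neutrophil markers were lower for 9 of 10 (251 to 342 against 122 to 152 CPM); the other, Mmp8, was higher (1.38 ± 0.13 on the log2 scale, adjusted p = 5.79e-06). In turn, fibroblast markers were higher for 12 of 14 (35.1 to 46.2 against 307 to 495 CPM). Of the eosinophil granule genes, Prg2 had 116 counts over the PDPN-negative and 0 over the PDPN-positive libraries, Epx 14 and 0, and Ear2 259 and 68, while Ear1 and Ear6 had at most 4 counts in either fraction. Genes of plasmacytoid dendritic cells, a cell type known for making type I interferon, summed to 467 to 542 against 480.0 to 534 CPM, most of it from Irf8 and Tcf4, which are not limited to that cell type. The other 6 genes of that list were below the filter, with at most 52 counts over either fraction; Siglech was at 0.234, 2.16, 0.142, 0.577 and 0.439 CPM in the PDPN-negative and 0.0703, 1.59, 0.130, 0.0762 and 0.233 CPM in the PDPN-positive libraries. The libraries of tumour 2 stood apart in lymphocyte genes, with Igkc at 108.5 and 46.3 CPM against at most 0.610 CPM in any other library. In such sorted bulk samples, fewer cells of a type and less RNA per cell cannot be told apart, and the part of these markers in the results below was not tested.

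Promoter letters are printed to show the element through which most of these genes are known to be read out, in members that fell and in members that did not pass the test. RefSeq promoter windows (GRCm38.p6, 250 bases before to 50 after the start) were found for 30 of the 39 members; Oas2, Mx1, Mx2, Ifi27l2a, Usp18, Zbp1, Ifi204, Siglec1 and Cxcl11 had none in the table. Searched were the ISRE letters GAAANNGAAA (TTTCNNTTTC on the other strand) and the GAS letters TTCNNNGAA, which read alike on both strands. Each stretch of 70 bases runs 5′ to 3′ on the strand of its gene, with the matches in capitals; overlapping matches are merged.

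Isg15, chr4:156200851-156200920, minus strand: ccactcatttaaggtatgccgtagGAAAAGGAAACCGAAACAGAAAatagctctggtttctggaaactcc

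Ifit3, chr19:34583360-34583429, plus strand: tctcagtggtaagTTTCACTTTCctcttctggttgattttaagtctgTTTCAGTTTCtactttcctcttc

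Ifit3b, chr19:34607756-34607825, plus strand: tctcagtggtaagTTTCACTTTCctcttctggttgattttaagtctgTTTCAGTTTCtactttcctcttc

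Oas1a, chr5:120907526-120907595, minus strand: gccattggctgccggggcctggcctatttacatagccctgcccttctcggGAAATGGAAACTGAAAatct

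Oas1g, chr5:120887614-120887683, minus strand: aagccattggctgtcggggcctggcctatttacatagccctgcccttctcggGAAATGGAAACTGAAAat

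Ifi205, chr1:174031850-174031919, minus strand: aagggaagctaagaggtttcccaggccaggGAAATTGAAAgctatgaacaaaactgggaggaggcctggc

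Trim30a, chr7:104465194-104465263, minus strand: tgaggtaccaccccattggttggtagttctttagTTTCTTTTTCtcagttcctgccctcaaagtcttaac

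Rsad2, chr12:26456533-26456602, minus strand: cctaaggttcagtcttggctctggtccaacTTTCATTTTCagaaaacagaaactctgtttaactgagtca

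Bst2, chr8:71537560-71537629, minus strand: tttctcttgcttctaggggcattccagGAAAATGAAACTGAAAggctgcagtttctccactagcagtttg

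Irf1, chr11:53769893-53769962, plus strand: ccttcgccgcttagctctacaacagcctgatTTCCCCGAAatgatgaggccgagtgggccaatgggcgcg

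The capitals are ISRE letters except in Irf1, where they are GAS letters. Isg15 held 3 overlapping ISRE matches in its run of capitals. The stretches of the neighbours Ifit3 and Ifit3b were identical over all 70 bases. Rsad2 and Bst2 are shown because their RNA did not pass the test, while the first 7 genes apart from Ifit3b fell. In all, 17 of the 30 members held ISRE letters in a window of theirs (56.7%), against 3.99% of the 27025 genes in the table. Among members that fell, 11 of 22 held them (50%), and among members not called 6 of 8 did (75%). GAS letters were found for 6 of the 30 members (20%), against 9.55% of all genes; 4 of the 22 members that fell held them, and 2 of the 8 others. Some genes have several windows in the table, and a gene was counted once. In Bst2 a GAS match overlapped the ISRE letters. A match describes letters in this window only.

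The interferon response genes were lower in the PDPN-positive fraction in most cases, by a small amount. With each tumour as its own reference, 28 of 39 members fell and 0 rose (edgeR quasi-likelihood test with the tumour as a block, Benjamini-Hochberg adjusted p under 0.05 over 13595 genes). That is 71.8% of the members, where 14.3% of all tested genes fell and 13.8% rose. No member was higher at an unadjusted p under 0.05, and none was called higher by DESeq2 or limma-voom. The median log2 fold change of the members was -0.41, a level 24.5% lower, against 0.01 over all tested genes. Only 7 members were at least 1.5-fold lower, and 1 was at least 2-fold lower (Ifi205).

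**Figure D1:**
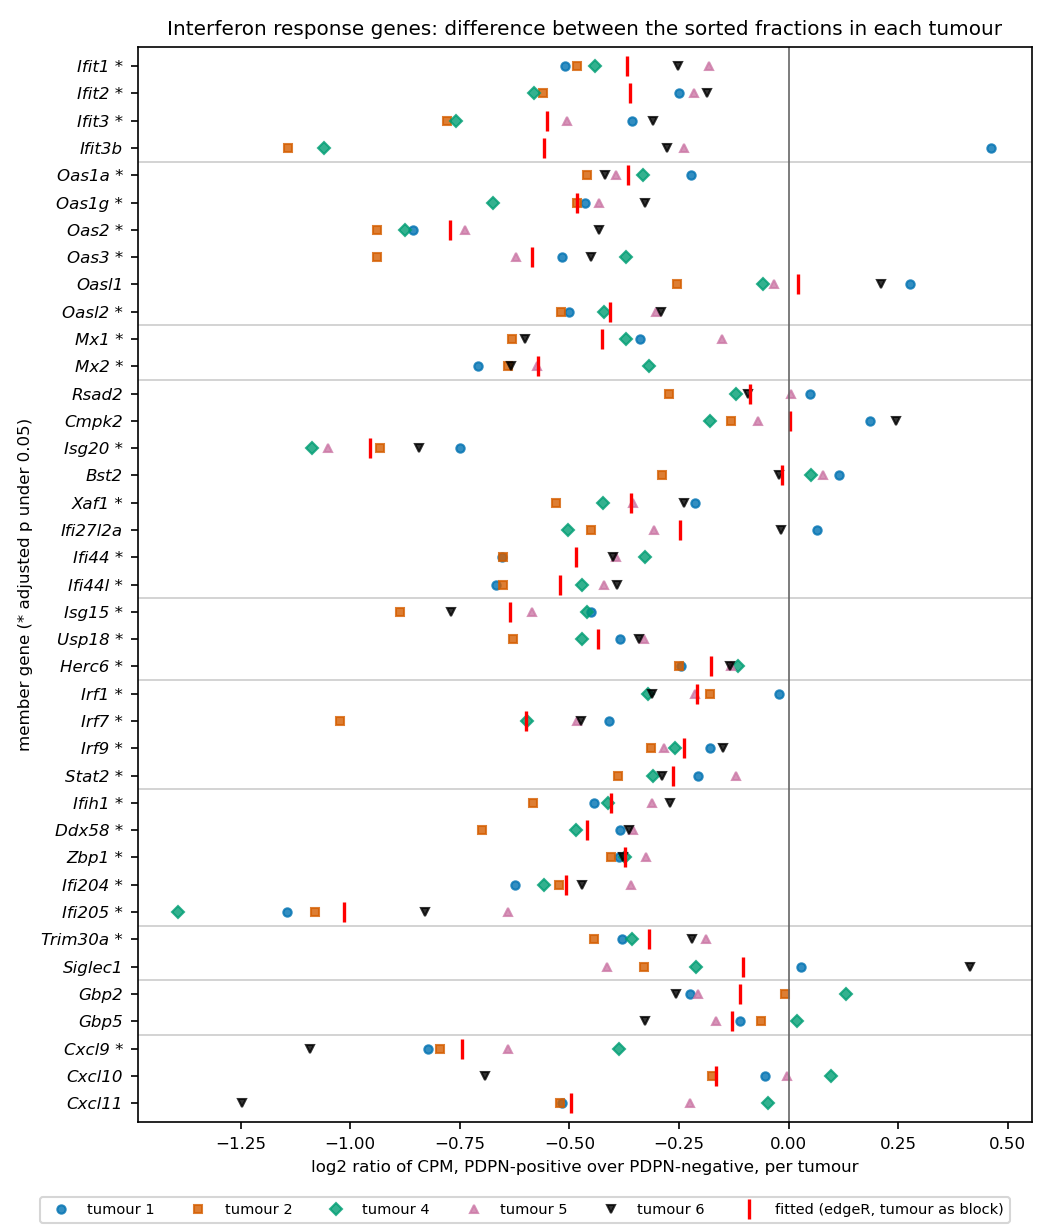
Log2 ratio of PDPN-positive over PDPN-negative CPM within each tumour (x axis) for the 39 members (y axis, grouped by role); each point is 1 tumour, the red bar is the fitted value, an asterisk marks an adjusted p under 0.05 and the line at 0 marks equal levels. For 29 members all 5 points lie below 0, while the points of Oasl1, Cmpk2, Bst2 and Rsad2 lie on both sides.

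The direction held in every tumour. In tumours 1, 2, 4, 5 and 6 the PDPN-positive library was lower for 32, 39, 35, 37 and 36 of the 39 members, while between 47.5% and 50.5% of all tested genes were lower. Median log2 ratios of the members were -0.38, -0.52, -0.37, -0.31 and -0.33, and those of all tested genes lay within 0.02 of 0. For 29 members the PDPN-positive library was the lower in all 5 tumours (74.4%, against 17.6% of all tested genes): the 28 that fell and Cxcl11. Only for Irf9 did all 5 PDPN-positive libraries lie below all 5 PDPN-negative ones, a separation that 5.13% of all tested genes showed. Without the tumour as a block, 3 members (Isg20, Irf9 and Oas1a) fell, where 6.77% of all tested genes did, and the median log2 fold change was -0.41. Of the 28, 27 also passed in each of the 10 other fits that kept the block; the exception was Herc6.

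The IFIT proteins, which bind viral RNA and block its translation, are encoded side by side on chromosome 19, and 3 of the 4 members fell. Ifit3 (ENSMUSG00000074896, chr19:34583531-34588731, plus strand) was at 17.7, 43.5, 30.7, 38.9 and 34.4 CPM in the PDPN-negative and 13.8, 25.3, 18.1, 27.4 and 27.8 CPM in the PDPN-positive libraries. The PDPN-positive library was the lower in every tumour, with a log2 fold change of -0.55 ± 0.08 (SE, adjusted p = 0.000155, and 0.184 without the block), yet the groups overlapped in 1 library, the PDPN-negative one of tumour 1. Ifit2 was at 76.7, 189.9, 124, 149 and 147 CPM in the PDPN-negative and 64.4, 129, 82.7, 128 and 129 CPM in the PDPN-positive libraries, and fell as well (-0.36 ± 0.06, adjusted p = 0.00115; 0.418 without the block). Ifit1 was at 17.0, 33.2, 25.8, 31.2 and 31.9 CPM in the PDPN-negative and 11.9, 23.7, 19.0, 27.5 and 26.8 CPM in the PDPN-positive libraries, again lower in 5 of 5 tumours (-0.37 ± 0.07, adjusted p = 0.00145; 0.368 without the block). Ifit3b had the lowest level of the family and in tumour 1 alone had its higher value in the PDPN-positive library (log2 fold change -0.56 ± 0.20, adjusted p = 0.0506). It passed without tumour 1 (adjusted p = 0.0202), without tumour 6 (0.0499), with RLE factors (0.048), with library size alone (0.0473) and without the filter (0.021). It did not pass without tumour 2 (0.225), 4 (0.162) or 5 (0.0658), by DESeq2 (0.148) or by limma-voom (0.0521). Ifit3 and Ifit3b share 51.2% and 45% of their transcript runs of 50 bases with other genes, mostly with each other, so their reads may be split between them.

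The OAS enzymes make a short adenylate that activates the RNA-degrading enzyme RNase L, and 5 of 6 members of the family fell. Oas2 (ENSMUSG00000032690, chr5:120730333-120749853, minus strand) showed the largest fold of the family, with 92.8, 184, 152, 159 and 85.0 CPM in the PDPN-negative and 51.2, 95.6, 82.7, 95.1 and 63.0 CPM in the PDPN-positive libraries. All 5 pairs moved down, by a log2 fold change of -0.77 ± 0.07 (adjusted p = 3.07e-06; 0.0716 without the block), and only tumours 1 and 6 of the PDPN-negative libraries lay within the PDPN-positive range. Oasl2 (chr5:114896936-114912234), an OAS-like protein, was at 124, 232, 174, 202 and 142 CPM in the PDPN-negative and 88.0, 162, 130.1, 164 and 116 CPM in the PDPN-positive libraries (-0.41 ± 0.05, adjusted p = 3.66e-05; 0.23 without the block). Oas1g was at 27.3, 48.7, 41.4, 40.2 and 29.3 CPM in the PDPN-negative and 19.7, 34.8, 25.9, 29.8 and 23.3 CPM in the PDPN-positive libraries (-0.48 ± 0.06, adjusted p = 6.97e-05; 0.112 without the block). Within each of these 2 genes the groups overlapped, and tumour 1 was the lowest of its fraction. Oas3 and Oas1a also fell (-0.59 ± 0.07 and -0.37 ± 0.05), and Oas1a kept its call without the block (adjusted p = 0.045). Oas1a and Oas1g share 57.6% and 45.7% of their runs of 50 bases with other genes. Oasl1, the direct chromosomal neighbour of Oasl2 and known for restraining IRF7 translation, was at 106 ± 29.2 against 106 ± 20.1 CPM (SD, n = 5 each). Its log2 fold change was 0.02 ± 0.07, and it took the other sign without tumour 1 (-0.04), without tumour 6 (-0.03) and without the block (-0.00).

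Both MX genes, which encode dynamin-like GTPases that trap viral particles, fell. Mx1 (ENSMUSG00000000386, chr16:97447035-97462907, minus strand) was at 31.8, 79.8, 56.7, 57.8 and 73.0 CPM in the PDPN-negative and 25.1, 51.5, 43.8, 52.0 and 48.1 CPM in the PDPN-positive libraries, lower in 5 of 5 tumours (-0.42 ± 0.07, adjusted p = 0.000456; 0.308 without the block). Mx2 was at 10.2, 22.8, 14.7, 16.1 and 15.2 CPM in the PDPN-negative and 6.18, 14.6, 11.7, 10.8 and 9.77 CPM in the PDPN-positive libraries, also lower in 5 of 5 (-0.57 ± 0.09, adjusted p = 0.000201; 0.137 without the block). The groups overlapped for both genes. GENCODE M21 annotates Mx2 as a polymorphic pseudogene.

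The other 8 antiviral effectors divided into 4 that fell and 4 that did not pass. Isg20 (ENSMUSG00000039236, chr7:78913424-78920396, plus strand), an exonuclease for RNA, was at 6.57, 12.9, 11.7, 14.8 and 11.8 CPM in the PDPN-negative and 3.87, 6.72, 5.47, 7.09 and 6.51 CPM in the PDPN-positive libraries. Except for tumour 1, every PDPN-negative library lay above all PDPN-positive ones, and the log2 fold change was -0.95 ± 0.10 (adjusted p = 8.94e-06; 0.0103 without the block). Ifi44l and Ifi44, neighbouring genes on chromosome 3, moved alike: Ifi44l was at 109.6, 184, 130.0, 136 and 115 CPM in the PDPN-negative and 69.0, 117, 93.7, 102 and 87.8 CPM in the PDPN-positive libraries (-0.52 ± 0.05, adjusted p = 7.45e-06; 0.0547 without the block). Ifi44 was at 185, 320.0, 222, 246 and 224 CPM in the PDPN-negative and 118, 204, 177, 187 and 169.8 CPM in the PDPN-positive libraries (-0.49 ± 0.06, adjusted p = 2.7e-05; 0.0746 without the block). For both, tumour 2 had the highest level of its fraction, and its PDPN-positive value lay within the PDPN-negative range. Xaf1, a pro-apoptotic factor, fell by less (-0.36 ± 0.06, adjusted p = 0.000661).

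A few classical interferon-induced genes showed values close to equal. Rsad2, which encodes viperin, and its chromosomal neighbour Cmpk2, a nucleotide kinase beside which it lies on chromosome 12, had log2 fold changes of -0.09 ± 0.05 (adjusted p = 0.232) and 0.00 ± 0.07 (adjusted p = 0.979). Rsad2 was at 64.0, 120.5, 84.1, 122 and 121 CPM in the PDPN-negative and 66.2, 99.8, 77.4, 123 and 114 CPM in the PDPN-positive libraries. The PDPN-positive value was the higher one in tumours 1 and 5 and the lower one in the other 3. Cmpk2 averaged 30.2 ± 7.54 against 30.2 ± 7.25 CPM (SD, n = 5 each), and its sign turned in 5 of the 11 other fits, among them those without tumour 1 (-0.04) and without tumour 6 (-0.06). Bst2, the membrane tether known as tetherin, was at 127 ± 18.8 against 125 ± 15.9 CPM (-0.01 ± 0.06, adjusted p = 0.886), and its value without tumour 2 was 0.06. Ifi27l2a was lower in 4 of 5 tumours (-0.25 ± 0.09, adjusted p = 0.0621), and passed without tumour 1 (0.00749), without tumour 6 (0.0323), and by DESeq2 (0.0224), limma-voom (0.0393) or library size alone (0.0347).

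**Figure D2:**
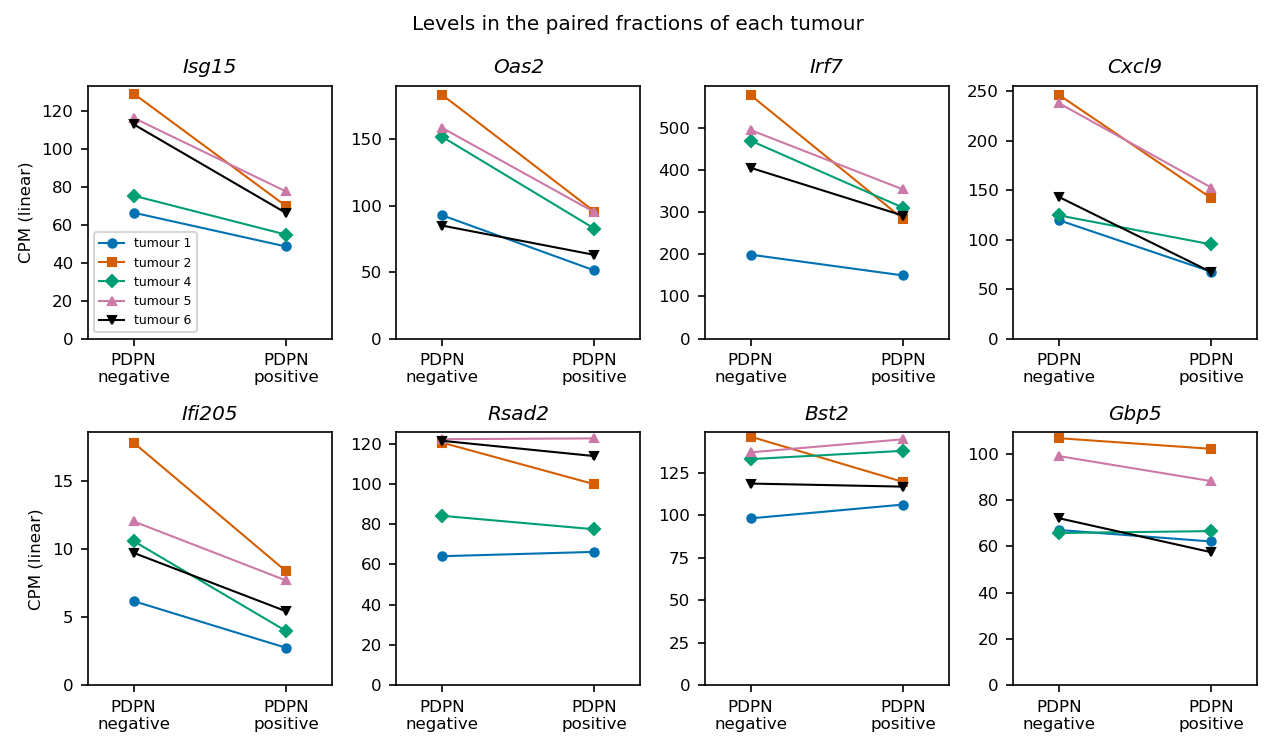
CPM (linear axis from 0) of 8 members in the PDPN-negative and PDPN-positive library of each tumour, with a line joining the libraries of 1 tumour. Lines slope down in all 5 tumours for Isg15, Oas2, Irf7, Cxcl9 and Ifi205, although the ranges of the fractions overlap, and are close to level or mixed for Rsad2, Bst2 and Gbp5.

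ISG15 is a ubiquitin-like protein that is attached to other proteins, in mouse by the ligase HERC6, and removed by USP18, which also damps IFNAR signalling. All 3 genes fell. Isg15 (ENSMUSG00000035692, chr4:156199424-156200818, minus strand) was at 66.4, 129, 75.4, 116 and 113 CPM in the PDPN-negative and 48.5, 69.9, 54.8, 77.6 and 66.2 CPM in the PDPN-positive libraries. The pair of every tumour moved down, by a log2 fold change of -0.64 ± 0.06 or 1.55-fold (adjusted p = 1.16e-05; 0.055 without the block). Usp18 was at 24.2, 52.2, 33.8, 45.7 and 41.6 CPM in the PDPN-negative and 18.5, 33.7, 24.4, 36.3 and 32.8 CPM in the PDPN-positive libraries (-0.44 ± 0.06, adjusted p = 0.000139; 0.242 without the block). Herc6 was at 25.4, 40.8, 21.6, 39.7 and 28.7 CPM in the PDPN-negative and 21.4, 34.3, 19.9, 36.3 and 26.1 CPM in the PDPN-positive libraries, with a small decrease in 5 of 5 tumours (-0.18 ± 0.06, adjusted p = 0.038; 0.643 without the block). The call on Herc6 was lost without tumour 1 (0.0964), without tumour 2 (0.148) and without tumour 5 (0.0703). It was also lost by DESeq2 (0.197), with library size alone (0.0578) and without the filter (0.0666), and Herc6 overlaps the gene model Gm45193 on the same strand.

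All 4 regulators fell. Irf7 (ENSMUSG00000025498, chr7:141262706-141266481, minus strand), the factor that amplifies type I interferon production, was at 199, 578, 469.5, 495 and 405 CPM in the PDPN-negative and 149.7, 284, 310.5, 354 and 292 CPM in the PDPN-positive libraries. Tumour 1 was far below the other tumours in both fractions, and the log2 fold change within tumours was -0.60 ± 0.08, or 1.51-fold (adjusted p = 0.000468; 0.203 without the block). Stat2, the STAT protein particular to type I and III signalling, was at 154, 271, 199, 219 and 177 CPM in the PDPN-negative and 133, 207, 161, 201 and 145 CPM in the PDPN-positive libraries (-0.26 ± 0.05, adjusted p = 0.00113; 0.326 without the block). Irf9, the DNA-binding partner of STAT2, was at 93.3, 113, 105, 110.4 and 93.6 CPM in the PDPN-negative and 82.3, 91.1, 88.1, 90.7 and 84.4 CPM in the PDPN-positive libraries. The difference was small (-0.24 ± 0.05, adjusted p = 0.00142) but the groups did not overlap, and the call held without the block (0.0307). Irf1, an interferon-induced transcription factor whose promoter carries the GAS letters shown above, fell by a similar amount (-0.21 ± 0.05, adjusted p = 0.00753; 0.333 without the block). Irf9 overlaps Rnf31 on the same strand and Irf7 overlaps Phrf1 on the other, and whether the counting used strand is not given.

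All 5 members among the nucleic acid sensors and PYHIN proteins fell; sensors outside the members are given further on. Ifi204 (ENSMUSG00000073489, chr1:173747293-173766943, minus strand), a PYHIN protein that binds DNA, was at 155, 250.5, 210.0, 226 and 188 CPM in the PDPN-negative and 101, 174, 143, 176 and 136 CPM in the PDPN-positive libraries. It was lower in all 5 tumours (-0.51 ± 0.05, adjusted p = 4.61e-06; 0.0686 without the block). Zbp1, which recognises left-handed Z-form nucleic acid and can trigger cell death, was at 128, 229, 167, 212 and 149.8 CPM in the PDPN-negative and 98.2, 173, 129, 169 and 115 CPM in the PDPN-positive libraries (-0.37 ± 0.04, adjusted p = 2.01e-05; 0.249 without the block). Ifi205, a further PYHIN gene on chromosome 1, was at 6.18, 17.8, 10.6, 12.0 and 9.72 CPM in the PDPN-negative and 2.74, 8.38, 3.98, 7.70 and 5.43 CPM in the PDPN-positive libraries. It had the largest fold of the 39 members at 2.02-fold lower (-1.01 ± 0.12, adjusted p = 2.9e-05; 0.0712 without the block), at a low level. Ddx58 and Ifih1, which encode the RNA sensors RIG-I and MDA5, fell by 0.46 and 0.41 on the log2 scale (adjusted p = 3.6e-05 and 5.79e-05). Ifi204 and Ifi205 share 20% and 18.6% of their runs of 50 bases with other genes, mostly Ifi211.

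Of the remaining pair of effectors, Trim30a fell and Siglec1 did not pass. Trim30a (ENSMUSG00000030921, chr7:104409025-104465193, minus strand), a restrainer of inflammatory signalling, was at 185, 256, 217, 221 and 183 CPM in the PDPN-negative and 142, 188, 169.6, 194 and 157 CPM in the PDPN-positive libraries (-0.32 ± 0.05, adjusted p = 0.000289; 0.0666 without the block). Siglec1, the sialic acid receptor CD169 of macrophages, was at 510.0, 739, 747, 790.0 and 512 CPM in the PDPN-negative and 520.1, 588, 646, 593 and 681 CPM in the PDPN-positive libraries. It was lower in tumours 2, 4 and 5 and higher in tumours 1 and 6 (-0.10 ± 0.12, adjusted p = 0.591). Without tumour 6 the log2 fold change was -0.23 and passed (0.0196), whereas it was -0.05 without tumour 2 (0.844) and -0.03 without tumour 5 (0.898).

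The guanylate-binding proteins, GTPases that attack microbes inside cells, had neither member called by edgeR. Gbp5 was at 67.1, 107, 65.8, 99.1 and 72.2 CPM in the PDPN-negative and 62.1, 102, 66.6, 88.2 and 57.5 CPM in the PDPN-positive libraries (-0.13 ± 0.05, adjusted p = 0.0894). Gbp2 was at 102, 156, 98.6, 167 and 118 CPM in the PDPN-negative and 87.6, 155, 108, 145 and 98.9 CPM in the PDPN-positive libraries (-0.11 ± 0.06, adjusted p = 0.178). Both were lower in 4 of 5 tumours, the exception being tumour 4, and without that tumour Gbp2 passed (0.0372). At an unadjusted p under 0.05 the count was 1 of 2, and by DESeq2 and limma-voom it was 0.

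The 3 ligands of the T cell receptor CXCR3 lie side by side on chromosome 5, and 1 of them fell. Cxcl9 (ENSMUSG00000029417, chr5:92321347-92328079, minus strand) was at 119.7, 246, 125, 238 and 143 CPM in the PDPN-negative and 67.6, 142, 95.2, 153 and 67.2 CPM in the PDPN-positive libraries. Each pair moved down by a log2 fold change of -0.74 ± 0.09 or 1.68-fold (adjusted p = 0.000236; 0.167 without the block), with overlap between the groups. Cxcl10 was at 132, 184, 127, 142 and 180.0 CPM in the PDPN-negative and 128, 163, 136, 142 and 111 CPM in the PDPN-positive libraries, lower in 4 of 5 tumours (-0.16 ± 0.11, adjusted p = 0.343). Its largest difference was in tumour 6, without which the log2 fold change was -0.04 (adjusted p = 0.67), and in tumour 4 the PDPN-positive value was higher. Cxcl11 was at 19.1, 36.4, 19.1, 39.4 and 30.1 CPM in the PDPN-negative and 13.3, 25.4, 18.5, 33.7 and 12.6 CPM in the PDPN-positive libraries, lower in 5 of 5 tumours without passing (-0.50 ± 0.16, adjusted p = 0.0642). It passed by DESeq2 (0.00252) and limma-voom (0.0186), and without tumour 4 (0.0314) or tumour 6 (0.0117). GENCODE M21 lists Cxcl11 as a polymorphic pseudogene, and Cxcl10 and Cxcl11 overlap Art3 on the other strand.

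Per kilobase of exon (GENCODE M21), the members covered a wide range of levels. In the PDPN-negative fraction Ifi27l2a was highest at 395 CPM per kilobase, ahead of Bst2 (140.4), Isg15 (132), Irf7 (114), Ifi44l (98.1) and Siglec1 (92.3). Ifit3b (2.56), Ifi205 (2.70) and Herc6 (3.36) were lowest.

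The members also moved together from tumour to tumour, in both fractions. Tumour 1 had the lowest level of its fraction for 31 of 39 members without PDPN and for 32 with it, where 22.1% and 18.3% of all tested genes were lowest there. For 29 members it was tumour 1 in both fractions (8.03% of all tested genes). The highest level lay in tumour 2 for 31 members of the PDPN-negative fraction, and in tumour 5 for 19 and tumour 2 for 15 of the PDPN-positive fraction. The same shares of all tested genes were 19.2%, 20.7% and 19.6%. No member was highest in tumour 1, where 21.1% of all tested genes were in the PDPN-negative and 18.8% in the PDPN-positive fraction. None was lowest in tumour 2 (16.2% and 19.6% of all tested genes) or tumour 5 (23.0% and 20.7%). Accordingly the SD of log2 CPM across tumours had a median of 0.40 for the PDPN-negative fraction and 0.35 for the other, against 0.17 and 0.15 over all tested genes. For the members the ratio within tumours varied less, with a median SD of 0.15. Over all tested genes the SD of that ratio was 0.17, no smaller than that of the levels. The spread of the members between tumours was thus about as large as their median difference of -0.41 between fractions. The spread of their paired ratio was smaller.

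**Figure D3:**
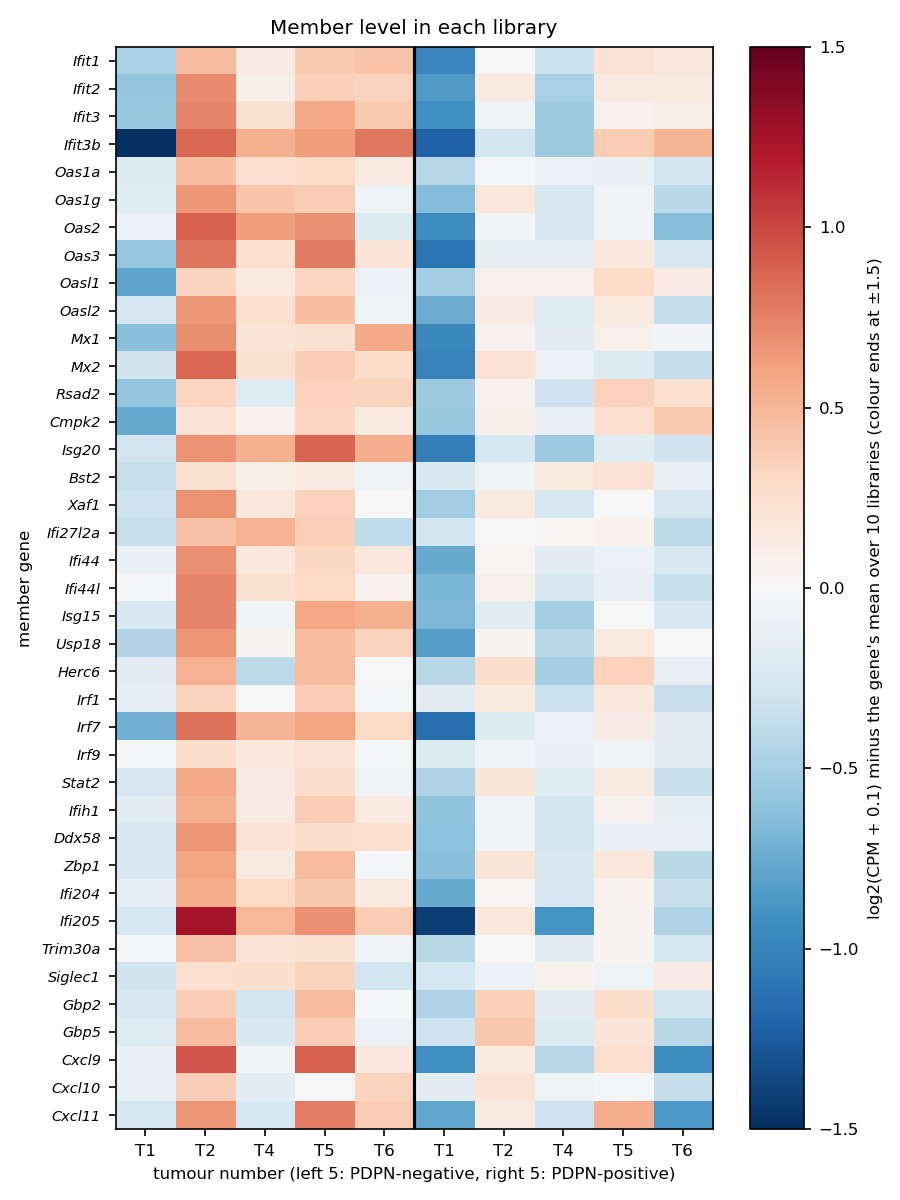
Log2(CPM + 0.1) of the 39 members (vertical axis) in the 10 libraries (horizontal axis, by fraction and tumour), less the mean of each gene over the libraries. Tumour 1 is low in both fractions, and within each tumour most members are lower in the PDPN-positive library.

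Genes upstream of the members were read from lists of other pathway genes. Of 20 interferon genes, 16 were at 0 in all 10 libraries, which allows up to 0.0216 CPM over all libraries (3 counts, counting error only). Ifnb1, the gene of interferon beta, had 2, 4, 2, 4 and 8 counts in the PDPN-negative and 5, 4, 5, 16 and 8 counts in the PDPN-positive libraries. As CPM it averaged 0.287 ± 0.179 and 0.561 ± 0.391 (SD, n = 5 each), with a two-sided exact paired permutation p = 0.0625, the smallest that 5 pairs allow (0.25 adjusted over 4 ligands). Raw counts were equal in tumours 2 and 6. Those pairs were higher in the PDPN-positive library only after scaling (0.262 against 0.289 CPM and 0.585 against 0.620 CPM), and the p depends on that. Ifng, the gene of interferon gamma, had 5 counts in all PDPN-negative libraries together and 0 in the PDPN-positive ones (exact paired p = 0.125, adjusted 0.25). Ifna2 and Ifnk had 2 counts each, all in PDPN-negative libraries.

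The subunits of IFNAR and IFNGR were lower as well. Of 16 receptor and JAK-STAT genes, 11 fell and 0 rose by edgeR. That is 68.8% of the list, where 14.3% of all tested genes fell. At an unadjusted p under 0.05, 13 fell and 0 rose, and DESeq2 and limma-voom called 0 higher. Ifngr1, the ligand-binding chain for interferon gamma, was at 251, 266, 259, 251 and 232 CPM in the PDPN-negative and 177, 172, 156, 157 and 170.5 CPM in the PDPN-positive libraries. The groups did not overlap (-0.60 ± 0.05, adjusted p = 1.69e-06; 4.88e-05 without the block). Ifnar1 was at 342, 328, 276, 328 and 281 CPM in the PDPN-negative and 249.8, 245, 228, 229 and 221 CPM in the PDPN-positive libraries, also without overlap (-0.40 ± 0.05, adjusted p = 3.14e-05; 0.00315 without the block). Ifnar2 fell too (-0.31 ± 0.06, adjusted p = 0.00201), as did the feedback inhibitor Socs3 (-0.43 ± 0.05, adjusted p = 2.18e-05). Stat3 (-0.15) and the phosphatase gene Ptpn6 (-0.15) fell by less. Ifngr2 passed narrowly (-0.13 ± 0.05, adjusted p = 0.0486). It did not pass without tumour 1 (0.142), 2 (0.139), 4 (0.097) or 6 (0.0799). The call on Ifngr2 was also lost by DESeq2 (0.113), with library size alone (0.0746), without the filter (0.0695) and without the block (0.121). It held without tumour 5 (0.0284), with RLE factors (0.0397) and by limma-voom (0.0478). With tumour 2 left out, 4 of the 16 genes fell, where 1379 of the 13595 tested genes did. Without the block 4 fell, where 6.77% of all tested genes did.

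Among 18 genes that sense nucleic acids or induce interferon, 8 fell and 0 rose. That is 44.4% of the list, where 14.3% of all tested genes fell. DESeq2 and limma-voom also called 0 higher, and 2 were higher at an unadjusted p under 0.05. Tlr9, the endosomal receptor for DNA, had the largest change of those named, with 81.5, 146, 103, 115 and 79.6 CPM in the PDPN-negative and 51.1, 73.4, 65.7, 53.3 and 46.8 CPM in the PDPN-positive libraries (-0.84 ± 0.07, adjusted p = 1.62e-06; 0.0125 without the block). Its adaptor Myd88 (-0.44), the chaperone Unc93b1 (-0.31), Tmem173, which encodes STING (-0.31), the adaptor Ticam1 (-0.32) and Irf2 (-0.24) also fell, in log2 fold change. Other sensors did not pass: Mb21d1, which encodes cGAS, was at -0.04 ± 0.07 (adjusted p = 0.695), Tlr7 at -0.11 ± 0.08 (0.353) and Tlr3 at -0.16 ± 0.07 (0.0897). Aim2, a PYHIN sensor of DNA kept among the other interferon-induced genes, was at 0.06 ± 0.05 (0.478).

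Of 66 tested genes among other interferon-induced genes, 48 fell and 1, Ifitm1, rose (0.44 ± 0.07, adjusted p = 0.000395; 0.183 without the block). The 48 are 72.7% of the list, where 14.3% of all tested genes fell. The list had a median log2 fold change of -0.33. Without the block 13 of its genes fell, where 6.77% of all tested genes did. Ms4a4c was at 109, 229, 169, 163 and 147 CPM in the PDPN-negative and 52.4, 98.8, 89.5, 92.9 and 62.6 CPM in the PDPN-positive libraries (-1.04 ± 0.06, adjusted p = 9.93e-08; 0.0139 without the block); it is also in the monocyte marker list, of which it shares the decrease. Slfn5 (-0.85), Trim30d (-0.66), Ly6e (-0.63), Samhd1 (-0.55), which breaks down nucleotides, and Parp14 (-0.50), a mono-ADP-ribosyltransferase, fell as well.

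A list of interferon-gamma-inducible GTPases had a median nearer 0 than the members. It holds GTPases only and does not stand for all genes that interferon gamma induces. Of 17 tested GTPases of the GBP and IRG families outside the members, 6 fell and 0 rose, with a median of -0.13. That is 35.3% of the list, where 14.3% of all tested genes fell. At an unadjusted p under 0.05, 7 fell and 0 rose, where 2641 of the 13595 tested genes fell. DESeq2 and limma-voom called 0 of the list higher. The largest of these by test was Ifi47 (-0.36 ± 0.05, adjusted p = 5.52e-05), followed by Irgm2 (-0.22) and Gbp3 (-0.21). Leaving out tumour 1 left 2 of the 17 lower. Leaving out tumour 2 left 3 lower, where 1379 of the 13595 tested genes fell. Without the block 0 fell, where 6.77% of all tested genes did. Whether this list differed from the members was not tested.

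**Figure D4:**
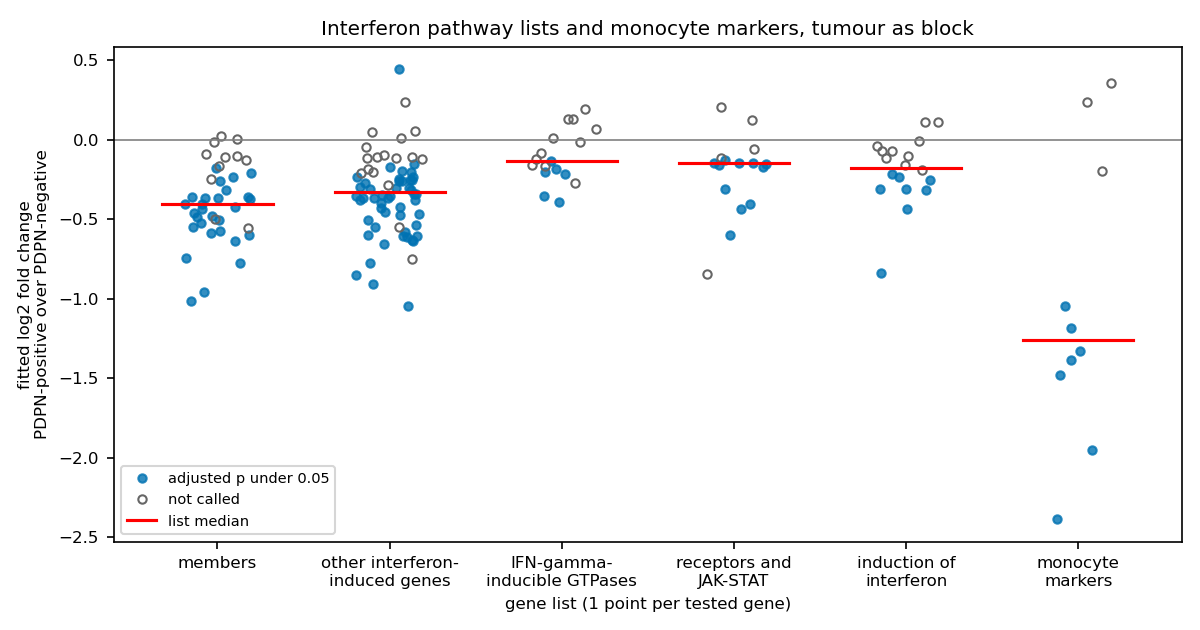
Log2 fold change, PDPN-positive over PDPN-negative, of each tested gene (points, filled where the adjusted p was under 0.05) in the members, the 4 pathway lists and the monocyte markers, with the median of each list as a red bar. All 6 medians lie below 0, from -0.13 for the GTPases to -1.26 for the monocyte markers.

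Of the 10 monocyte markers tested, 7 fell, and the median log2 fold change was -1.26. The other 3 did not pass: F13a1 was at 0.36 ± 0.24 (adjusted p = 0.348), Vcan at 0.24 ± 0.09 (0.0842, higher in 5 of 5 tumours) and Chil3 at -0.19 ± 0.20 (0.532). Ccr2, the chemokine receptor of classical monocytes, was at 868, 1175, 1027, 924 and 826 CPM in the PDPN-negative and 393, 506, 435, 389 and 396 CPM in the PDPN-positive libraries (-1.18 ± 0.05, adjusted p = 1.7e-09), and Ly6c2 at 2.35, 29.4, 16.7, 16.4 and 14.6 CPM in the PDPN-negative and 0.843, 4.19, 3.06, 4.65 and 2.09 CPM in the PDPN-positive libraries (-2.39 ± 0.16, adjusted p = 5.6e-07). Both genes were lower in the PDPN-positive library of every pair, and Ly6c2, itself known to respond to interferon, was lowest in tumour 1 of each fraction. The part of such cells in the decrease of the 39 members was not tested. With both libraries of tumour 2 left out, 27 members fell and the median was -0.37. In that fit 1379 of the 13595 tested genes fell. The part of lymphocytes in the decrease was not tested either.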

How the data were processed

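RNA of 10 sorted libraries was pre-amplified with SMART-Seq, which carries no molecular identifiers here. The authors deposited raw counts per gene, used as deposited. Tools named by the submitters' processing notes are featureCounts 1.5.3, STAR 2.5.2b, Bowtie2 2.3.3.1 and cutadapt 1.15. Not given in the sources used here are their settings, the genome build, the annotation and the handling of strand and of multi-mapping reads. Positions come from GENCODE M21 (GRCm38), for identification only.

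Groups and tumour numbers came from the labels. Counts were tested with edgeR 4.0.16 (R 4.3.3): filterByExpr by group (minimum count 10, minimum total 15) left 13595 genes, scaled with TMM, and a robust quasi-likelihood model took group and tumour (common biological coefficient of variation 7.55%). The tumour was a block because the labels take both fractions of a number from the same tumour. Deviations from the group means correlated at 0.237 to 0.499 between libraries of a tumour. Between a PDPN-negative library and the PDPN-positive libraries of other tumours they correlated at most at 0.0873. Taking out the group means itself lowers the values across tumours where those within a tumour are positive, so this contrast is no test of the pairing. The SE is the absolute log2 fold change over the square root of F. Alternatives were no block, DESeq2 1.42.0, limma-voom (limma 3.58.1), RLE factors, library size alone, no filter, and each tumour left out. Genes below the filter had an exact paired permutation test of log2(CPM + 0.1). Scripts were tested on simulated data. Where a symbol had several identifiers, that with the most counts was used.

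The members, role groups and lists were chosen with earlier results of these data known. The rule for named genes was values in every library for the 3 members of each role group with the lowest p, and naming, with or without such values, of up to 6 called genes of each other list by lowest p and of Ifnb1, Ifng, Ifnar1, Ifnar2, Ifngr1, Ifngr2, Pdpn, Itgam and Adgre1; a further gene of that rule is not reported here. Igkc, Siglech, Irf8, Prg2, Epx, Ear1, Ear6, F13a1, Vcan, Chil3, Mb21d1, Tlr3, Tlr7, Aim2, Ifna2, Ifnk, Ifitm1, Rsad2 and the overlapping or related genes named for identity lie outside that rule and were chosen after their values were seen. Itgam and Adgre1, the genes of the sorted surface markers, had log2 fold changes of 0.23 ± 0.05 (adjusted p = 0.00548) and -0.13 ± 0.11 (0.479). Of the remaining marker lists, 4 of 12 macrophage markers fell and 3 rose, where 14.3% of all tested genes fell and 13.8% rose. For plasmacytoid dendritic cells 1 of 2 tested markers fell, for T cells 1 of 3, for natural killer cells 1 of 1 and for B and plasma cells 2 of 2. Of 8 epithelial markers 2 fell and 1 rose, and 2 of 5 endothelial markers rose. With so few tested genes, such counts say little beside those shares.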

Additional observations from a re-analysis of the deposited data

Results flagged for a closer look

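In 6 of the 78 groups of 5 libraries looked at (39 members in each fraction), the lowest library lay far from the nearest other one for its group's range. Chance alone gives about 1 such group in 20. All 6 were tumour 1, and in each it was the lowest library. They were Ifit3b in the PDPN-negative fraction at 1.095 CPM, Cmpk2 in the PDPN-negative fraction at 17.3 CPM and Isg20 in the PDPN-negative fraction at 6.57 CPM. In the PDPN-positive fraction they were Oasl1 at 72.6 CPM, Mx1 at 25.1 CPM and Irf7 at 149.7 CPM. The genes share the libraries of that tumour, so the 6 are not independent.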

How the results depend on the processing

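Median log2 fold changes of the members stayed between -0.43 and -0.37 when each tumour was left out, and 27 to 32 members fell; 0 rose in any fit. With the block kept, 29 members fell by DESeq2, with RLE factors and with library size alone, 30 by limma-voom and 28 without the filter. Of the 13595 tested genes, DESeq2 called 1445 lower and limma-voom 1937.

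The fit without the replicate block moved the counts most: 3 members, 920 of all genes lower and 929 higher. Per group it left 0 members called of the IFIT family, 1 of the OAS family, 0 of the MX GTPases, 1 of the other antiviral effectors, 0 of the ISG15 system, 1 of the regulators, 0 of the sensors, 0 of Trim30a and Siglec1 and 0 of the CXCR3 ligands. Called lower were 4 receptor and JAK-STAT genes, 13 other interferon-induced genes, 0 interferon-gamma-inducible GTPases, 1 macrophage, 3 conventional dendritic cell, 0 plasmacytoid dendritic cell, 0 natural killer and 0 epithelial markers, and called higher were 1 macrophage, 0 epithelial, 1 endothelial marker and 0 other interferon-induced genes. By DESeq2, 1219 of all genes rose, and 6 receptor genes, 3 GTPases, 2 CXCR3 ligands and 0 epithelial markers fell. Limma-voom called 2 CXCR3 ligands and 1 epithelial marker lower. Library size alone left 3 GTPases. Without the filter 2 plasmacytoid dendritic cell, 2 T cell, 2 natural killer and 4 B and plasma cell markers fell.

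With each tumour left out in turn, counts of genes that fell ran from 1380 (without tumour 2) to 2016 over all genes (1360 to 1925 rose), 4 to 8 for the receptors, 2 to 4 for the GTPases and 40 to 46 for the other interferon-induced genes, of which 1 to 2 rose. They ran from 1 to 2 for Trim30a and Siglec1, 0 to 1 for the guanylate-binding proteins, 1 to 2 for the CXCR3 ligands, 4 to 7 for conventional dendritic cell, 0 to 1 for plasmacytoid dendritic cell and 0 to 3 for epithelial markers. Values near 0 changed sign. Oasl1 was -0.00302 without the block and ran from -0.040 to 0.094 with a tumour left out. Cmpk2 was -0.0027 without the block, -0.0017 by limma-voom, -0.0020 with RLE factors and -0.061 to 0.044 with a tumour left out. Bst2 ran from -0.050 to 0.055, the latter without tumour 2. The cause was not tested.

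Depth limits the interferon genes themselves, most of which had no count.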

Other observations

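Some genes outside the members followed another order of tumours. Ly6e, a membrane protein induced by interferon, was at 319.5, 981, 882, 907 and 424 CPM in the PDPN-negative and 228, 577, 582, 606 and 256 CPM in the PDPN-positive libraries, so that tumours 1 and 6 were both well below the other 3 in each fraction, while the PDPN-positive library was lower in 5 of 5 tumours. Ifitm1, which restricts viral entry, was at 227, 149, 178, 139 and 116 CPM in the PDPN-negative and 261, 246, 235, 204 and 145 CPM in the PDPN-positive libraries, with tumour 1 the highest and tumour 6 the lowest of each fraction. Both orders were noticed after the values were seen, and neither was tested.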
